A study of Mus musculus with 8 samples.

Results

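The 38 genes described here are known markers of skeletal muscle (16 genes), fat (12 genes) and cartilage (10 genes), followed through 8 arrays of mouse lung RNA. They were taken by symbol from the 20842 named genes of the arrays, and all 38 were measured. The set was drawn up with earlier results of these data known, since the array of wild-type replicate 4 had been seen to carry high signals of such genes. The members were thus selected on their log2 signals on that array against the other 7, and these levels are given below as a description without a test.

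The study compared lungs of newborn C57Bl/6J pups of 2 genotypes, wild type and Fgf10+/-, with 4 independent samples in each group. Fgf10 encodes a growth factor of the mesenchyme that drives branching of the lung epithelium, and Fgf10+/- pups are heterozygous for it. Pups of both groups were kept in a chamber at 20% oxygen from postnatal day 0 to postnatal day 3, so neither group received added oxygen, and total RNA of the lung was hybridised to single-colour arrays. The labels name neither the type of the Fgf10 allele nor litter or sex.

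Fgf10 itself did not read lower in the libraries labelled heterozygous, and its groups overlapped. Its log2 signal was 7.49, 7.81, 6.89 and 7.64 in wild-type replicates 1 to 4 and 7.55, 7.96, 7.96 and 8.33 in replicates 1 to 4 of the other group. The means were 7.46 ± 0.40 (SD, n = 4) in wild type and 7.95 ± 0.32 (SD, n = 4) in the other group, so the mean was higher in the libraries labelled heterozygous (difference 0.49, SE 0.24, limma with Benjamini-Hochberg adjustment, adjusted p = 0.507). Of 10 Fgf10 probes the one with the highest mean was used. Where this probe lies relative to the altered part of the gene is not known here, and a probe outside that part would check nothing. Each direction below is stated for the libraries labelled Fgf10+/-. The tissue label itself matched the signals: Sftpc, the surfactant protein of alveolar type 2 cells, read between 15.98 and 15.99 on all 8 arrays, at the top of the scale. Correlations between arrays over all named genes ran from 0.977 to 0.986, and wild-type replicate 4 correlated with its own group at 0.979 to 0.981, below the 0.985 to 0.986 found among wild-type replicates 1 to 3.

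Skeletal muscle fibres contract through myosin heavy chains that pull on actin, under the control of the troponin complex and of calcium released from and pumped back into the sarcoplasmic reticulum. The heavy chains are replaced in sequence during development, from embryonic and perinatal forms to the adult forms of fast fibres. Brown fat, which is plentiful around the chest and neck of newborn mice, burns lipid for heat through the uncoupling protein Ucp1, while white fat stores lipid in droplets and secretes adipokines. Cartilage holds collagen and aggrecan in a matrix laid down by chondrocytes, and in the chest it forms the rings of the airways and the ends of the ribs.

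Start-site sequences are shown for 3 neighbouring myosin genes that share a run of letters and for Ucp1, the fat gene with the largest gap. The fast and perinatal heavy chains are neighbours: Myh3, Myh2, Myh1, Myh4 and Myh8 follow each other on chromosome 11, with 5 of 5 protein-coding genes in that span being these myosins. RefSeq promoter windows (GRCm38.p6, 250 bases before to 50 bases after the start) were found for 31 of the 38 members and not for Tnnt3, Tnni2, Actn3, Cidea, Elovl3, Fabp4 and Comp. Windows of Myh1 (chr11:67199852-67200151), Myh4 (chr11:67237562-67237861), Myh8 (chr11:67276874-67277173) and Ucp1 (chr8:83290098-83290397), all on the + strand, are printed 5′ to 3′. Capitals mark TATAAA, the letters of a TATA box wherever they occur, and TATTTATAG, an A/T-rich run of the type bound by MEF2 factors. They also mark CAGCTG, an E-box of the type bound by myogenic factors, and, in Ucp1, AGGTCA, a nuclear receptor half-site.
Myh1: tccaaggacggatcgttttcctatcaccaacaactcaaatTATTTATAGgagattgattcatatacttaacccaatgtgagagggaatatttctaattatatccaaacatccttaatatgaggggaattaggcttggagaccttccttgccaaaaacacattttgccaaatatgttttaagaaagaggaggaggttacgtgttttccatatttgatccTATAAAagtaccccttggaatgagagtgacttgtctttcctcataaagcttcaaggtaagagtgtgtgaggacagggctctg
Myh4: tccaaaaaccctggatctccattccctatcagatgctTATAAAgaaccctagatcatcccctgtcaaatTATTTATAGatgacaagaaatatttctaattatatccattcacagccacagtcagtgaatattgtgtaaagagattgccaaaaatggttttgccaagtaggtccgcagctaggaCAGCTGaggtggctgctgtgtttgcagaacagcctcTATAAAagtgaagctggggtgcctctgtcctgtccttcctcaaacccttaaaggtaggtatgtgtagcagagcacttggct
Myh8: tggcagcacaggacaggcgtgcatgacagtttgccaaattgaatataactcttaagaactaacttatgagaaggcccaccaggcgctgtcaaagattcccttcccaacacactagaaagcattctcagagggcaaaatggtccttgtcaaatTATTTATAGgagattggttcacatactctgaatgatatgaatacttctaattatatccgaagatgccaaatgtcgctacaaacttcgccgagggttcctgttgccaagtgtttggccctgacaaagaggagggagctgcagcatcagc
Ucp1: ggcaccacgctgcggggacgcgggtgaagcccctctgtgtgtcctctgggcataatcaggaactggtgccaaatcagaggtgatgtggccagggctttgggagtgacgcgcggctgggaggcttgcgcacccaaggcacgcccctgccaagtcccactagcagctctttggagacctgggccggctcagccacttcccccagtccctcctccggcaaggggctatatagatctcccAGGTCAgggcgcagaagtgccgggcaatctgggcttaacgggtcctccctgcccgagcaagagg

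The 3 myosin windows share the 15-base run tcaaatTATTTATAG, which starts the longer run of 22 bases common to Myh1 and Myh8, tcaaatTATTTATAGgagattg. The A/T-rich run began 210 bases before the start in Myh1, 181 before it in Myh4 and 98 before it in Myh8. Searched on both strands over 32851 promoter windows, TATTTATAG was found in 0.451%, TATAAA in 13.6%, CAGCTG in 16.3% and AGGTCA in 16.3%. TATTTATAG contains TATAAA on the opposite strand, so a window with the first always counts for the second. On the printed strand TATAAA began 32 bases before the start in Myh1, and 31 and 213 bases before it in Myh4. In Myh8 the only match was the one on the opposite strand within TATTTATAG, 96 bases before the start. Among the members with a window, 3 of 13 skeletal muscle genes held TATTTATAG (Myh1, Myh4 and Myh8), while none of the 9 fat or 9 cartilage genes did. TATAAA was found in 6 of 13 skeletal muscle windows, those of Acta1 and all 5 myosins, and in 1 of 9 fat (Cox8b) and 1 of 9 cartilage windows (Chad). CAGCTG was found in 6 of 13 skeletal muscle, 4 of 9 fat and 2 of 9 cartilage windows, and AGGTCA in 2, 2 and 1 of them, Ucp1 and Plin5 being the fat genes. These are letter matches, and binding was not measured.

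Skeletal muscle genes had the highest median lead on wild-type replicate 4, at 3.05 log2 units over the highest other array, followed by 0.73 for fat and 0.10 for cartilage genes. A gene is said below to stand apart on an array where its log2 signal there was at least 1 unit, which is 2-fold, above the highest of the other 7 arrays. By that measure 12 of the 16 skeletal muscle genes, 5 of the 12 fat genes and 4 of the 10 cartilage genes stood apart on wild-type replicate 4, which makes 21 of 38, or 55.3%. Of all named genes 0.840% did so on this array. Since these values chose the members, nothing is read from the difference between those shares. In bulk RNA, more cells of a type and more RNA per cell cannot be told apart.

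Thin filament genes, Tnnc2 and Acta1, led the skeletal muscle members, with gaps of 6.86 and 5.33 log2 units. Tnnc2, the calcium-binding troponin C of fast fibres, had a log2 signal of 11.75 in wild-type replicate 4, against 3.79, 3.21 and 4.34 in wild-type replicates 1 to 3 and 2.96, 3.96, 4.89 and 3.00 in Fgf10+/- labelled replicates 1 to 4. Acta1, skeletal muscle alpha-actin, read 10.96 on that array, against 5.31, 5.17 and 5.16 in the other wild-type lungs and 5.36, 5.14, 5.23 and 5.63 in the libraries labelled Fgf10+/-. In both genes the 7 other arrays formed a low band in which the genotypes overlapped, and wild-type replicate 4 lay 116-fold above the highest of them for Tnnc2 and 40.3-fold above it for Acta1. Tnni2, the inhibitory troponin I of fast fibres, read 10.91 on wild-type replicate 4, 6.01 to 6.35 in the rest of wild type and 5.57 to 6.45 in the other group. Tnnt3, the troponin T of fast fibres that anchors the complex to tropomyosin, read 9.51 there, then 4.46, 4.19 and 5.30 in wild-type replicates 1 to 3 and 3.84, 4.05, 3.37 and 3.92 in the libraries labelled Fgf10+/-. These are gaps of 4.46 and 4.21 log2 units, and for Tnnt3 the 3 other wild-type lungs lay above all 4 of the other group. A second Tnnt3 probe gave a like gap of 4.68.

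All 5 myosin heavy chains stood apart on wild-type replicate 4, including the developmental forms. Myh8, the perinatal heavy chain, read 10.62 there, against 6.77, 7.02 and 6.27 in the other wild-type lungs and 6.15, 5.74, 6.22 and 5.57 in the libraries labelled Fgf10+/-. Myh3, the embryonic heavy chain, read 6.74 there, against 2.59, 2.06 and 3.96 in wild type and 2.97, 2.29, 3.66 and 2.42 in the other group. Both developmental forms were high on the same array, by 3.60 and 2.78 log2 units over the next highest. On the other 7 arrays the genotypes overlapped for Myh3, while for Myh8 the 3 wild-type lungs lay above the other group. Myh1, the heavy chain of fast type 2X fibres, read 8.39 there, against 2.62, 3.57 and 2.27 in wild type and 2.32, 2.09, 2.15 and 3.31 in the other group. Myh2, of type 2A fibres, read 6.78 on that array and at most 3.25 elsewhere, and Myh4, of type 2B fibres, read 5.22 and at most 3.11. In these 3 genes the other 7 arrays lay near the floor of the scale, below or around the array median of 3.47, and the genotypes overlapped. The heavy chains are close copies of each other, so a probe may also pick up a neighbour's RNA, and how much each contributed is uncertain. A second Myh8 probe did not show the pattern, with 3.84 on wild-type replicate 4 and 3.85 on wild-type replicate 3, whereas a second Myh3 probe did, with a gap of 3.31.

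Regulators and metabolic genes of the fibre were split. Pvalb, the calcium buffer of fast fibres, read 7.14 on wild-type replicate 4 and 2.58 to 3.82 on the other 7 arrays. Mybpc2, the fast myosin-binding protein C, read 5.40 there and 2.11 to 3.35 elsewhere. Actn3, the alpha-actinin of the fast fibre's Z-disc, read 5.42 there and 2.44 to 3.72 elsewhere. Each of these 3 stood apart, by 3.32, 2.05 and 1.70 log2 units. Eno3, the muscle form of the glycolytic enzyme enolase, read 10.09 there, against 9.35, 9.40 and 9.24 in wild-type replicates 1 to 3 and 8.93, 8.89, 8.96 and 8.96 in the other group. Atp2a1, the calcium pump of the fast fibre's sarcoplasmic reticulum, read 5.42 there, against 5.03, 4.94 and 4.56 in wild type and 3.88, 4.67, 4.18 and 4.25 in the other group. Both were highest on wild-type replicate 4 but by less than 1 log2 unit, 0.69 for Eno3 and 0.39 for Atp2a1. Ckm, the creatine kinase that buffers ATP in muscle, read 5.46 there, against 4.39, 3.60 and 5.64 in wild-type replicates 1 to 3 and 3.35, 3.75, 3.80 and 3.72 in the other group, so its highest array was wild-type replicate 3. Mylpf, the regulatory light chain of fast fibres, read between 1.76 and 2.76 on all 8 arrays, at the floor, and its probe showed no array apart.

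**Figure D1:**
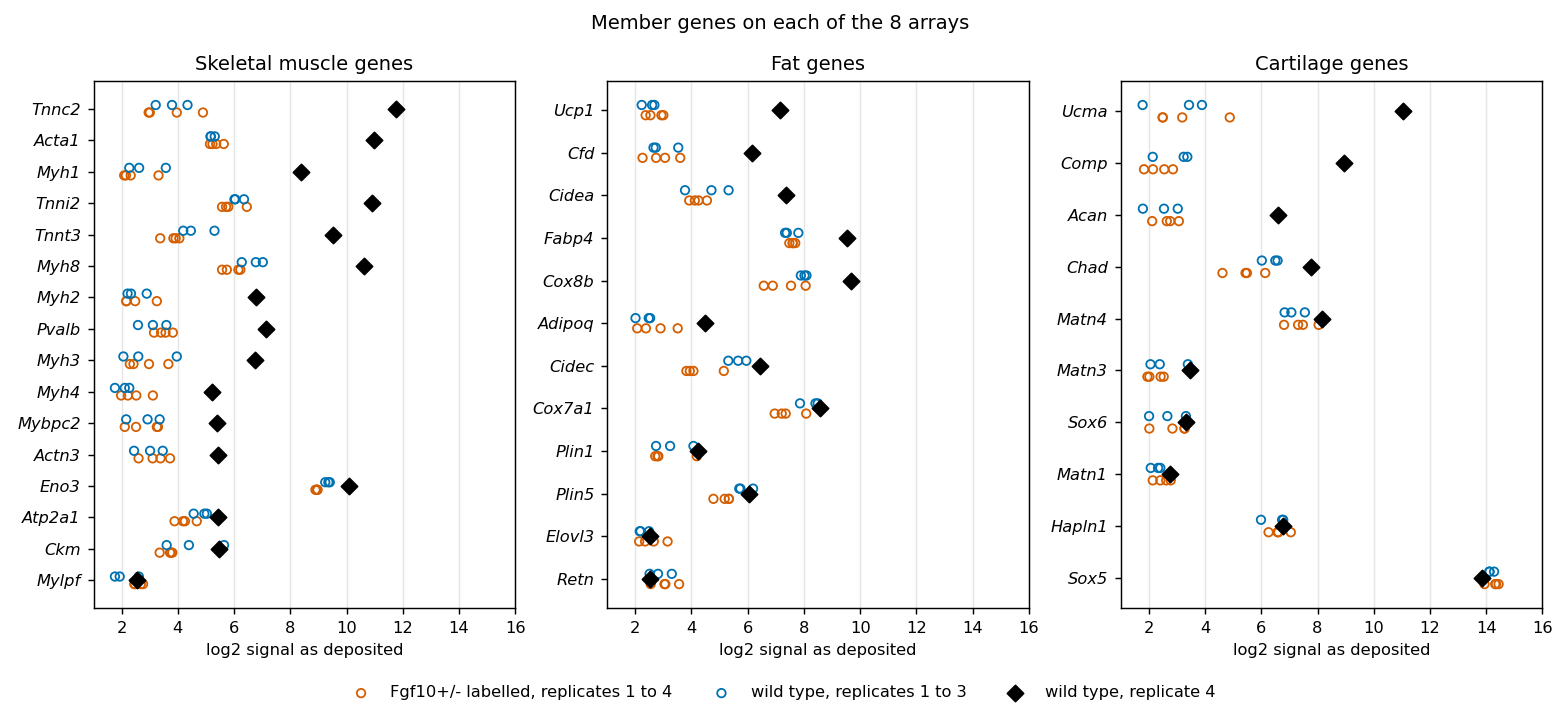
Log2 signal (horizontal axis, as deposited) of each of the 38 member genes on each of the 8 arrays, with skeletal muscle, fat and cartilage genes in separate panels. Each point is 1 array: wild-type replicate 4 is a filled diamond, wild-type replicates 1 to 3 and Fgf10+/- labelled replicates 1 to 4 are open circles. The diamond lies at least 1 unit to the right of all circles for 12, 5 and 4 genes in the 3 panels.

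Among fat genes, those of brown fat gave the largest gap. Ucp1, the uncoupling protein that defines brown fat, read 7.16 on wild-type replicate 4, against 2.23, 2.68 and 2.60 in the other wild-type lungs and 3.00, 2.54, 2.37 and 2.93 in the libraries labelled Fgf10+/-. Cidea, a lipid droplet protein of brown fat, read 7.35 there, against 5.32, 4.71 and 3.77 in wild type and 4.55, 3.92, 4.25 and 4.12 in the other group. Cox8b, a subunit of cytochrome oxidase shared by brown fat, heart and muscle, read 9.68 there, against 8.02, 7.89 and 8.09 in wild type and 6.89, 6.57, 8.06 and 7.54 in the other group. These 3 stood apart by 4.16, 2.02 and 1.59 log2 units, while on the other 7 arrays the genotypes overlapped. Cox7a1, a cytochrome oxidase subunit with the same tissues, read 8.58 on wild-type replicate 4 and 8.49 on wild-type replicate 1, a gap of 0.10. Elovl3, a fatty acid elongase of brown fat, read 2.14 to 3.15 over the 8 arrays, with 2.53 on wild-type replicate 4.

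Genes of fat cells at large were divided in the same way. Cfd, the secreted protease adipsin, read 6.15 on wild-type replicate 4 and 2.26 to 3.60 on the others. Fabp4, the fatty acid carrier of fat cells and also of capillary endothelium, read 9.53 there and 7.33 to 7.80 on the others. Both stood apart, by 2.55 and 1.73 log2 units, and the 7 other Fabp4 values lay within a band of less than 1 unit. Adipoq, the adipokine adiponectin, was just outside the mark with 4.47 against at most 3.51, a gap of 0.96, while Chad, a cartilage gene, was just inside it at 1.19. Plin1, the perilipin that coats the droplets of white fat, read 4.22 on wild-type replicate 4, 4.19 on Fgf10+/- labelled replicate 1 and 4.07 on wild-type replicate 1, so it did not single out an array. Retn, the adipokine resistin, read 2.51 to 3.56 over the 8 arrays and was among the lowest on wild-type replicate 4, at 2.52. Cidec and Plin5, which act on lipid droplets, had their higher values in wild type generally and are taken up with the genotype comparison.

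Cartilage members gave some of the highest and some of the flattest profiles. Ucma, a small matrix protein of resting chondrocytes, read 11.03 on wild-type replicate 4, against 3.43, 1.78 and 3.89 in the other wild-type lungs and 2.50, 3.19, 4.88 and 2.49 in the libraries labelled Fgf10+/-. Comp, the cartilage oligomeric matrix protein, which tendon also makes, read 8.95 there, against 2.14, 3.37 and 3.24 in wild type and 2.15, 2.55, 2.86 and 1.83 in the other group. Acan, the aggrecan core protein that holds water in cartilage, read 6.60 there and 1.79 to 3.07 elsewhere. Wild-type replicate 4 exceeded the next array 71.1-fold for Ucma, 47.7-fold for Comp and 11.5-fold for Acan, and the genotypes overlapped on the other 7 arrays. Chad, the matrix protein chondroadherin, read 7.77 there, against 6.50, 6.02 and 6.58 in wild type and 5.44, 5.49, 6.14 and 4.62 in the other group, and the wild-type lungs overlapped the other group through Fgf10+/- labelled replicate 3. The other 6 cartilage genes did not stand apart, their gaps running from -0.58 for Sox5 to 0.11 for Matn4. They were the matrilins Matn1, Matn3 and Matn4, the link protein Hapln1, and Sox5 and Sox6, partners of Sox9 in the chondrocyte programme. Over the 8 arrays Matn1 read 2.07 to 2.78, Matn3 1.95 to 3.48 and Sox6 2.01 to 3.33, all near the floor. Hapln1 read 5.99 to 7.05 and Matn4 6.81 to 8.15, so these were measured above the array median without singling out an array. The Sox5 probe used here read 13.86 to 14.44 on all 8 arrays, near the top of the scale, and was lowest on wild-type replicate 4, while 2 dim Sox5 probes were highest there by 0.53 and 0.85.

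Members standing apart numbered 0 on each of the other 7 arrays. For the 21 that stood apart on wild-type replicate 4 this was fixed in advance, since a gene can stand apart on only 1 array. The other 17 members could have done so, and the largest lead of any member on another array was 0.49, for Elovl3 on Fgf10+/- labelled replicate 3. That array had more genes standing apart than any other, 185 against 175 on wild-type replicate 4, but 29 of its genes led by at least 2 log2 units against 65. Those 65 genes are 0.312% of all named genes, and 17 of them are members. Where wild-type replicate 4 was set aside, the next highest array of the 21 members was wild type in 10 and labelled Fgf10+/- in 11. The spread of the other 7 arrays (SD) among members that stood apart was 0.17 to 0.73 for skeletal muscle, 0.17 to 0.62 for fat and 0.47 to 1.03 for cartilage. The lowest gaps among them were 1.70, 1.59 and 1.19. These members were picked by their gap, so nothing is read from setting it against the spread. Wild-type replicate 4 was the highest array for 30 of the 38 members, and for 12.5% of all named genes.

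**Figure D2:**
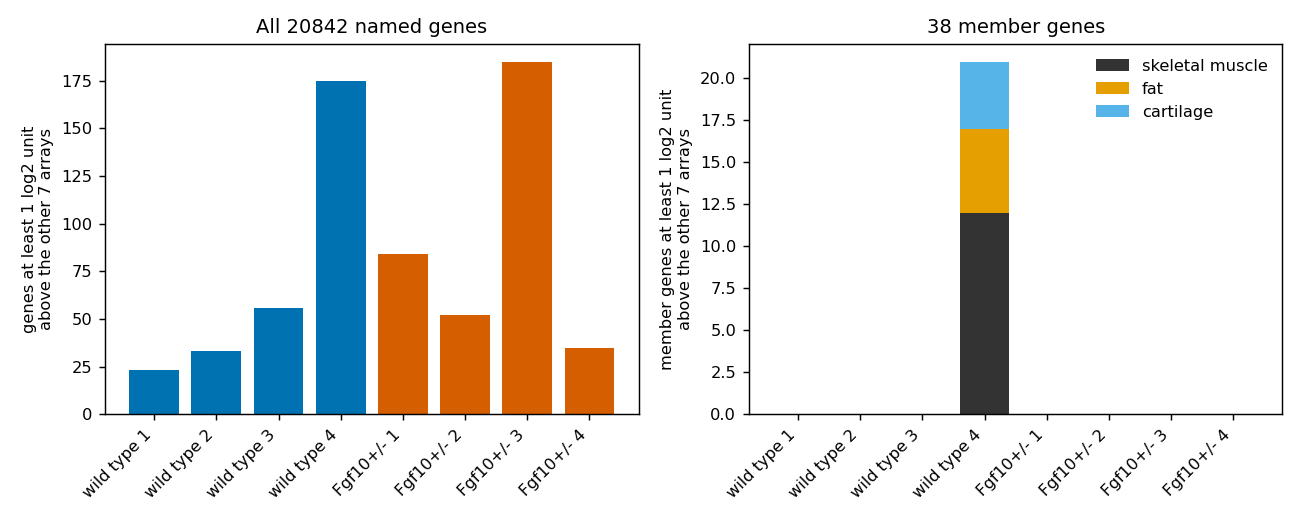
Number of genes (vertical axis) whose log2 signal on an array was at least 1 unit above the highest of the other 7 arrays, for all 20842 named genes (left) and for the 38 members, stacked by tissue (right), with a bar for each array. Wild-type replicate 4 and Fgf10+/- labelled replicate 3 have 175 and 185 such genes, and the 21 members that stand apart do so on wild-type replicate 4, the array on which the members were chosen.

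As a share of the summed linear signal of all named genes, the 16 skeletal muscle members made up 0.0728% on wild-type replicate 4 and 0.00465% to 0.00658% on the others, 11.1 times the highest of them. The 12 fat members made up 0.0157% there and 0.00343% to 0.00662% elsewhere, 2.38 times the highest. The 10 cartilage members, a sum ruled by the bright Sox5 probe, made up 0.113% there, within the 0.101% to 0.142% of the other arrays. The member genes were thus a small part of the total signal on each array.

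Lists of other genes from the same and from nearby tissues were read the same way, as counts and medians without a test. These lists too were drawn up with earlier results of these data known, so they are no independent support. Of all named genes 0.840% stood apart on wild-type replicate 4. Among 15 further cartilage genes, 11 stood apart on wild-type replicate 4, with a median gap of 3.16 log2 units, where the median over all named genes was -0.40. Col2a1, the main collagen of cartilage, read 13.97 there, against 3.42, 5.56 and 2.18 in the other wild-type lungs and 4.85, 5.42, 5.17 and 5.40 in the libraries labelled Fgf10+/-. Its gap of 8.41 was the largest of all 20842 genes, followed within the list by Col9a1, a collagen on the surface of the same fibrils, at 6.36 and Snorc, a chondrocyte membrane proteoglycan, at 5.78. The further cartilage genes together made up 0.145% of the summed signal on wild-type replicate 4 and 0.00745% to 0.0115% on the other arrays. Genes of hypertrophic cartilage and bone did not share this, with 0 of 12 standing apart and a median gap of -1.08.

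Of 26 further skeletal muscle genes 8 stood apart, with a median gap of 0.45, and 22 were highest on wild-type replicate 4. Over all named genes these shares were 0.840% and 12.5%. Myl1, the essential light chain of fast myosin, read 11.44 there, against 5.01, 4.08 and 5.24 in wild type and 5.35, 3.55, 5.03 and 3.46 in the other group, a gap of 6.09. Mybpc1, the slow myosin-binding protein C, and Myot, a Z-disc protein, followed at 3.57 and 2.85. Of 15 genes of myogenic precursors and the nerve-muscle synapse 2 stood apart, Chrna1, a subunit of the muscle acetylcholine receptor, at 1.74 and Mymx, which acts in myoblast fusion, at 1.03. Heart muscle did not go with skeletal muscle: of 14 heart genes 1 stood apart, Pln, which restrains the calcium pump of heart and slow muscle, at 2.05. Of the 14, 10 read lower on wild-type replicate 4 than on each of wild-type replicates 1 to 3, as did 5998 of all 20842 genes. The median difference of the heart genes from the mean of those 3 arrays was -0.39. Of 6 genes shared by slow muscle and heart 1 stood apart, the ventricular and slow light chain Myl2 at 2.04.

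The fat pattern did not extend to other fat genes, and the share standing apart over all named genes was 0.840%. Of 14 further brown fat genes 0 stood apart (median gap -0.64), and of 16 further fat cell genes 0 stood apart (median gap -0.17), the highest gap being 0.94 for Adig, a fat cell protein. Of 7 tendon genes 2 stood apart, the membrane protein tenomodulin, Tnmd, at 2.20 and the matrix protein Thbs4 at 1.03, and 9 of 9 Tnmd probes were highest on wild-type replicate 4. None stood apart among the genes of thymus (0 of 9), thyroid and parathyroid (0 of 7 measured), stratified epithelium (0 of 10), nerve glia (0 of 7), neurons (0 of 9), mesothelium (0 of 7) or liver (0 of 6). Nor did lung's own genes: 0 of 12 epithelial and 0 of 7 endothelial genes stood apart, and their medians on wild-type replicate 4 differed from the mean of wild-type replicates 1 to 3 by -0.11 and -0.04. Of the epithelial genes 7, and of the endothelial genes 2, read lower there than on each of those 3 arrays, as did 5998 of all 20842 genes. Muscle, cartilage and some fat and tendon markers were high together in 1 lung. The labels do not say how the lungs were dissected, and the part of other tissue in these values was not tested.

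**Figure D3:**
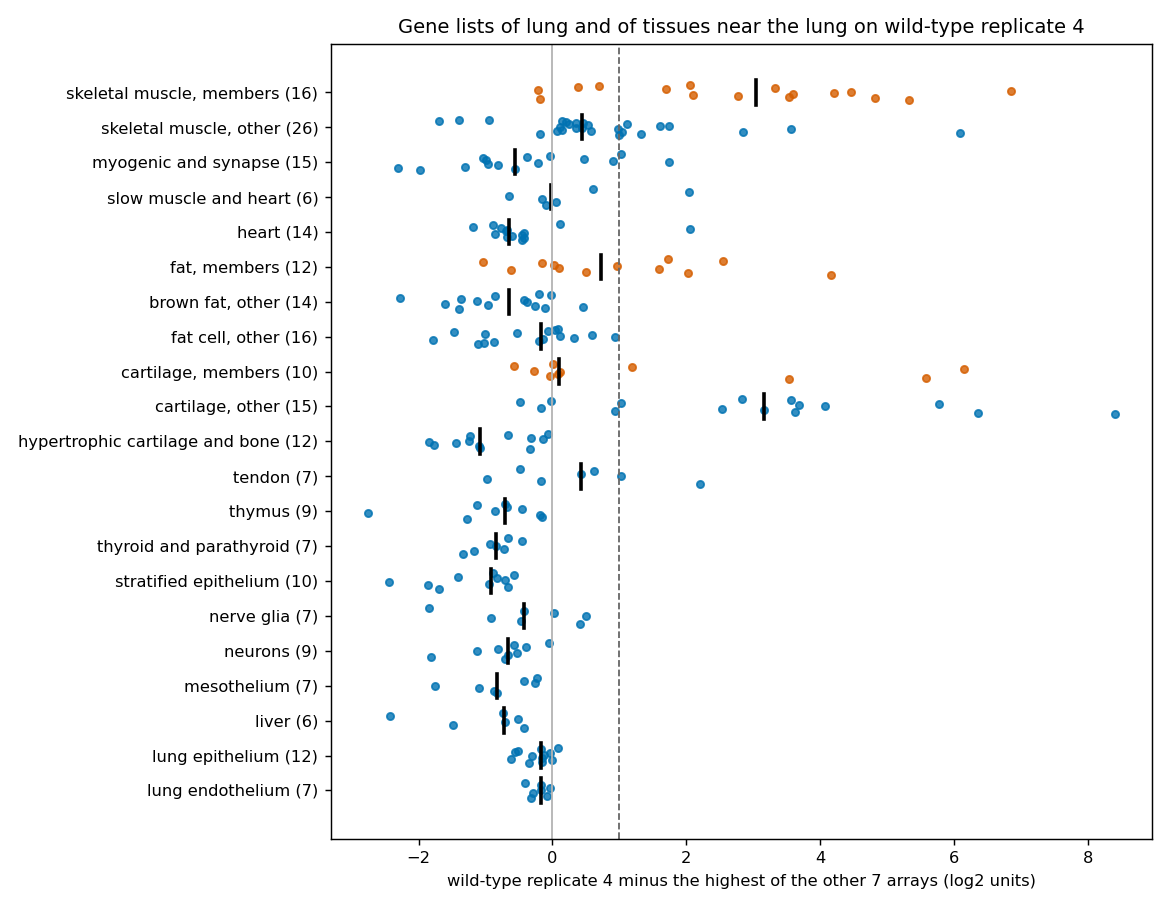
Each point is a gene, placed at its log2 signal on wild-type replicate 4 minus the highest of the other 7 arrays (horizontal axis), with the 3 member lists in orange and the lists of other tissues in blue, the number of measured genes in brackets. Black bars are medians and the dashed line is the mark of 1 unit: 12 of 16, 5 of 12 and 4 of 10 members lie to its right, as do 11 of 15 further cartilage genes, while 0 of 12 lung epithelial genes do. Of all named genes 0.840% reach that mark.

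The comparison the study was designed for is that between genotypes. With all 8 arrays, 0 of the 38 members passed an adjusted p of 0.05 in limma, as did 0.00% of all genes, and 8 members had an unadjusted p under 0.05, as did 11.0% (2298 genes). The member with the lowest adjusted p was Cidec, at 0.177. In 5 of the 38 (Eno3, Myh8, Tnnt3, Cidec and Plin5) the 4 libraries labelled Fgf10+/- lay below all 4 of wild type, and no member's groups were apart in the other direction. Of all genes, 7.39% had groups that did not overlap, with both directions counted. With a mean-variance trend and robust settings in limma, 414 genes passed, among them 1 member, Cidec (adjusted p = 0.0134). With array weights 3 genes and no member passed. The p-values measure the spread between these samples, described by the submitters as independent. In the libraries labelled Fgf10+/- 30 of the 38 members had the lower mean, as did 10465 of all 20842 genes. The median difference, libraries labelled Fgf10+/- minus wild type, was -1.02 for skeletal muscle, -0.80 for fat and -0.29 for cartilage, where that of all genes was -0.00. Since 1 wild-type array chose the members, these medians hold its values. The p-values, calls and non-overlap count of the members with all 8 arrays hold them too, so they are a description and not a test.

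Without wild-type replicate 4 the medians were -0.06, -0.14 and 0.15, so that of cartilage changed sign. Then 20 members had the lower and 18 the higher mean in the libraries labelled Fgf10+/-, against 10460 and 10382 of all genes. The difference of Ucma moved furthest, by 2.00, from -1.77 (SE 1.83) to 0.23 (SE 0.73). Tnnc2 went from -2.07 (SE 1.77) to -0.08 (SE 0.52), Acta1 from -1.31 (SE 1.24) to 0.12 (SE 0.15) and Ucp1 from -0.96 (SE 1.02) to 0.21 (SE 0.20). In these 4 genes the difference and its standard error both shrank when 1 array was left out. Among all genes 0.00480% (1 gene) then passed an adjusted p of 0.05, and 0 of the 38 members did, the lowest adjusted p being 0.186 for Cidec in limma.

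A smaller set of members had the lower mean in the libraries labelled Fgf10+/- with and without that array, short of the adjusted threshold. On the 7 arrays 8 of 38 members had an unadjusted p under 0.05, against 12.8% of all genes (2658), and all 8 were lower in the libraries labelled Fgf10+/-, which is 21.1% against 7.24% of all genes. They were Eno3, Myh8, Tnnt3 and Atp2a1 of skeletal muscle, Cidec, Plin5 and Cox7a1 of fat, and Chad of cartilage. In the same 5 of 38 genes (13.2%) all 4 libraries labelled Fgf10+/- lay below the 3 remaining wild-type lungs, as did those of 7.68% of all genes, and in 0 they lay above, against 6.00%.

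Cidec, which enlarges lipid droplets by fusing them, read 5.66, 5.95, 5.31 and 6.45 in wild-type replicates 1 to 4 and 4.07, 3.82, 3.94 and 5.15 in the libraries labelled Fgf10+/-. The groups did not overlap with all 8 arrays, and the difference was -1.60 (SE 0.35, limma adjusted p = 0.177), or -1.39 (SE 0.34, adjusted p = 0.186) without wild-type replicate 4. A second, dimmer Cidec probe gave -0.88, with overlapping groups. Plin5, the perilipin that ties lipid droplets to mitochondria in oxidative tissue, read 6.19, 5.74, 5.70 and 6.04 in wild type and 4.78, 5.33, 5.18 and 5.33 in the other group. The groups again did not overlap, and the difference was -0.76 (SE 0.17, limma adjusted p = 0.185), or -0.72 (SE 0.19, adjusted p = 0.204) on 7 arrays. In neither gene was wild-type replicate 4 more than 0.50 above the rest of wild type.

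Cox7a1 read 8.49, 7.86, 8.41 and 8.58 in wild type and 6.96, 7.21, 8.08 and 7.35 in the libraries labelled Fgf10+/-, overlapping through replicate 3 of the latter (difference -0.94, SE 0.26, limma adjusted p = 0.259). Eno3 differed by -0.58 (SE 0.19, limma adjusted p = 0.302) with 8 arrays and by -0.39 (SE 0.10, adjusted p = 0.196) with 7, and Atp2a1 by -0.74 (SE 0.22, adjusted p = 0.275) and -0.60 (SE 0.21, adjusted p = 0.313). Chad, the cartilage member in this set, differed by -1.30 (SE 0.43, limma adjusted p = 0.313) and by -0.95 (SE 0.35, adjusted p = 0.324). The differences of Myh8 and Tnnt3 narrowed without wild-type replicate 4: Myh8 went from -1.75 (SE 0.87) to -0.77 (SE 0.24) and Tnnt3 from -2.07 (SE 1.08) to -0.86 (SE 0.29), with limma adjusted p of 0.254 and 0.296 on 7 arrays. The second Myh8 probe gave -0.40 and -0.18, and the second Tnnt3 probe -2.07 and -0.82.

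Heart genes had lower means in the same libraries. All 14 of 14 heart genes had the lower mean in the libraries labelled Fgf10+/-, with a median difference of -0.78, and all 14 did so without wild-type replicate 4 (-0.82). Of all 20842 genes 10465 had the lower mean there, or 10460 without that array. Their share of the summed signal was 0.165%, 0.149%, 0.153% and 0.117% in wild-type replicates 1 to 4 and 0.0746%, 0.0715%, 0.114% and 0.0899% in the other group. Heart muscle also makes Cox7a1, Cox8b, Eno3 and Plin5. The 12 lung epithelial genes had the lower mean in 12 of 12 as well, with a median of -0.45, or -0.49 on 7 arrays. Sftpc, at the top of the scale, counted among them with a difference of -0.0. The part of heart tissue in the member values was not tested.

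**Figure D4:**
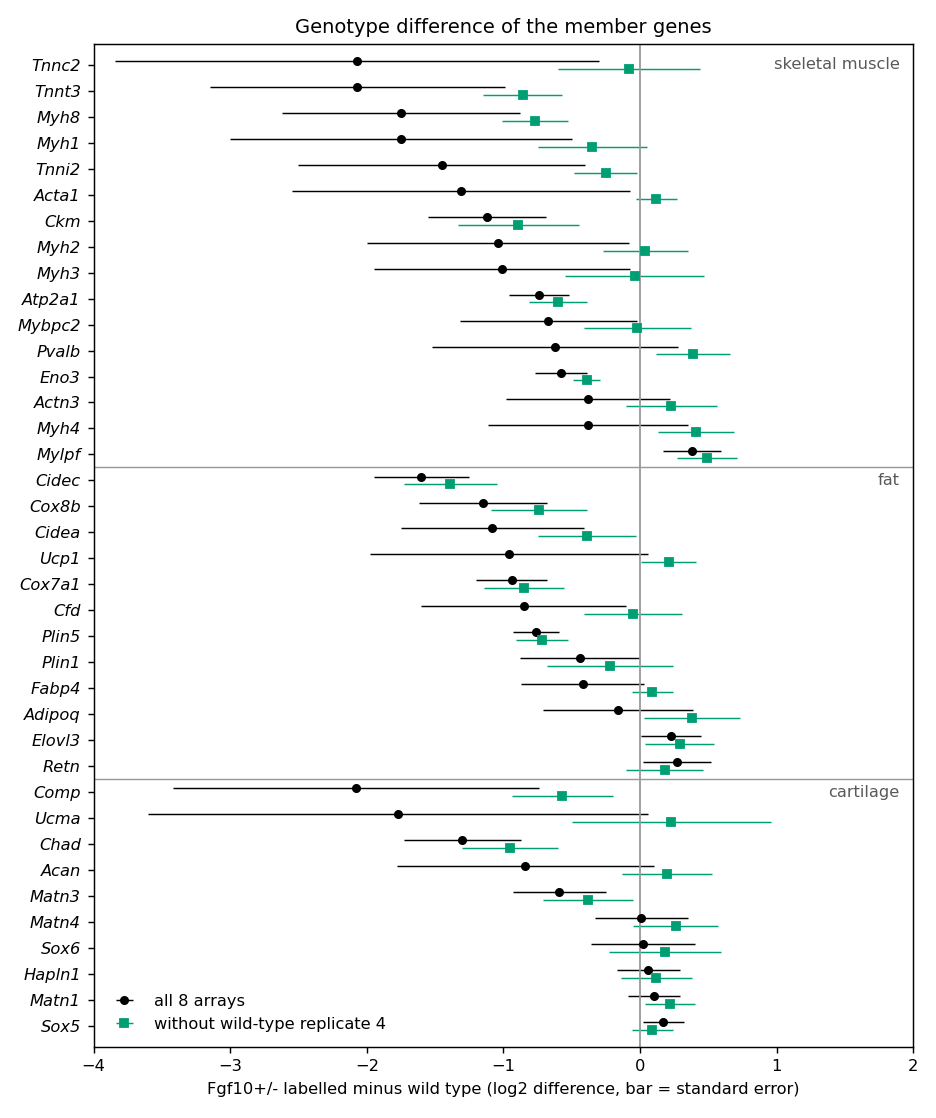
Difference in mean log2 signal between the libraries labelled Fgf10+/- and wild type (horizontal axis) for each of the 38 members, with limma's moderated standard error as the bar, for all 8 arrays (black circles) and without wild-type replicate 4 (green squares). The bars of Ucma, Tnnc2 and Acta1 shorten and their points move to near 0, while Cidec and Plin5 stay at -1.39 and -0.72.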

How the data were processed

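Total RNA of 8 mouse lungs, 4 per genotype, was measured on single-colour Agilent arrays. The table of 62976 probes holds log2 values as deposited by the authors, from 1.51 to 15.99, with the scale read from the values. Sorted values of the arrays differed by at most 0.0042, so the authors' values had the same distribution on every array. limma is named without a version, per the submitters' processing notes. For the background correction the labels give no method, and differences near the floor (array median 3.47) or the top of the scale are compressed by an unknown amount. Columns not used numbered 0. Precision is limited by the number of arrays, 4 a group.

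A symbol was given for 31465 probes and none for 31511, updated through RefSeq accessions (GRCm38.p6), which matched 29050 probes and changed 2933 symbols. After 120 probes with a blank were left out, 31425 named probes stood for 20842 genes, and a gene with several probes was represented by the one with the highest mean. No pair of arrays held identical values (0 pairs). The genotype fit was limma 3.58.1 in R 4.3.3 over all named genes (group only, two-sided, Benjamini-Hochberg, threshold 0.05). On data simulated with these genes' spread it found 49 of the 100 genes set to differ by 1 log2 unit and 76 of the 100 set to differ by 2, and 6 of its 131 calls were false. The changed genes were drawn at random from all genes, with normally distributed noise. These rates do not describe the members, whose standard errors reached 1.83 with all 8 arrays.

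The members and the 21 gene lists were chosen with earlier results of these data known. Every member could be named. From each other list up to 3 genes with the highest lead of wild-type replicate 4 over the other 7 arrays could be named, and outside the lists the 15 with the highest lead. Alternatives were other probe choices, normalizations, filters, variance models and array weights, a larger gap, the replicate number as a block, and leaving out arrays. Batches are not labelled and were not tested. Promoter windows came from a RefSeq table, and protein and probe sequences were not used here.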

Additional observations from a re-analysis of the deposited data

Results flagged for a closer look

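In groups of 4, a sample is picked out here when its gap to the nearest other sample, divided by the range of the group, exceeds the critical value of Dixon's test. Of 222 groups looked at, 30 exceeded it, and in 23 of the 30 the sample was wild-type replicate 4, highest in its group. Chance picks out about 1 in 20 groups of genes not chosen by their values, and that rate cannot be set against these counts. The members were chosen for high signals on wild-type replicate 4, and the other genes, from the lists and outside them, were named for their lead on the same array. The ratios are therefore a description.

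Among the members' list means within wild type, the ratio was 0.994 for skeletal muscle and 0.882 for fat, with wild-type replicate 4 highest in both. Single muscle members with that array highest were Acta1 (0.974), Tnni2 (0.929), Tnnc2 (0.867), Myh4 (0.854) and Myh2 (0.851). The fat members were Ucp1 (0.907) and Cox8b (0.888). Other muscle and cartilage genes were Col9a1 (0.950), Snorc (0.854) and Myl1 (0.843). Of the genes outside all lists, Vmn2r70 (0.968), Gm833 (0.960), Gal3st2c (0.920), Gm4847 (0.917), Cd40lg (0.899), A330033J07Rik (0.876), Nlrp4a (0.869), Olfr995 (0.851), Gpr119 (0.847), Foxd2 (0.842) and Reg4 (0.837) were picked out on the same array.

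The other 7 were on other arrays. Fgf10+/- labelled replicate 1 was highest in its group for the fat genes Plin1 (0.928) and Gpd1 (0.859) and for the neuronal gene Stmn2 (0.899), and replicate 4 of that group was highest for Dio2 (0.878), an enzyme of brown fat that activates thyroid hormone. Wild-type replicate 2 was lowest in its group for the cartilage link protein Hapln1 (0.942) and for Sftpc (1.0), whose 4 values spanned 15.98 to 15.99, and wild-type replicate 1 was lowest for Chrna3 (0.941).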

How the results depend on the processing

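The 21 members that stood apart on wild-type replicate 4 were the same 21 with all probes of a gene averaged. They were also the same under further quantile normalization, median centring and 75th percentile scaling. These could change little, since the arrays already had the same distribution. None of the 21 could be lost by leaving out 1 of the other 7 arrays, since this can only keep or raise a lead. Ckm joined them without wild-type replicate 3 and Adipoq without Fgf10+/- labelled replicate 1, so the counts ran from 12 to 13 for skeletal muscle, 5 to 6 for fat and 4 to 4 for cartilage, and the median leads from 3.05 to 3.20, 0.73 to 1.04 and 0.10 to 0.53. Without wild-type replicate 4 these leads have no value. With a gap of 2 log2 units, 3 fat members stood apart. With all probes averaged the median leads were 2.25 for skeletal muscle, 0.53 for fat and 0.32 for cartilage, and with every probe on its own that of fat was 0.30. Leaving out genes below the median signal kept 4 skeletal muscle, 3 fat and 4 cartilage members, of which 3, 2 and 1 stood apart, with median leads of 4.03, 1.59 and -0.09, so that of cartilage changed sign. This filter used the mean over all 8 arrays, so a high signal on wild-type replicate 4 helped a member to pass. Acta1 was kept with a mean of 5.29 on the other 7 arrays, while Plin5, at 5.46 on them, was left out. These counts and leads are therefore a description.

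Between genotypes, leaving out each array in turn gave 0 to 1 genes and 0 to 0 members past the adjusted threshold, and medians from -1.38 to -0.06 for skeletal muscle, -0.87 to -0.14 for fat and -0.50 to 0.15 for cartilage. The upper end of each range is the fit without wild-type replicate 4. Leaving out Fgf10+/- labelled replicate 3 as well, an alternative chosen after seeing the data, gave medians of -0.28, -0.09 and 0.05. Without dim genes 288 genes and 0 members passed, with medians of -1.38 for skeletal muscle and 0.03 for cartilage, since most members were left out. The trend and robust settings called 414 genes and 1 member, and array weights called 3 genes, the medians then being -0.74 in skeletal muscle and -0.57 in fat genes. With every probe on its own the cartilage median was 0.01. The cartilage median thus changed sign in these 4 settings: without wild-type replicate 4, without Fgf10+/- labelled replicate 3 as well, without dim genes and with every probe on its own.

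Same-numbered arrays of both groups correlated in their deviations at 0.11, 0.02, 0.02 and 0.08, and arrays with other numbers at -0.15 to 0.07. The 0.11 and 0.08 were thus the highest of all pairs, though low. The labels name no pairs, and the numbers were not taken to pair the samples. With the replicate number as a block 0 genes and 0 members passed. The medians of -1.02, -0.80 and -0.29 could not change, since each number occurs once in each group. Of the values under an alternative, 34 of those that answer a comparison moved by more than the spread (1 SD) of the list mean over the 7 arrays other than wild-type replicate 4 or, for counts, by over 1.5 times, and 137 did not. The 137 include values that could not move or hardly could, such as the medians under the block and the leads under further normalization. The tally is therefore no measure of robustness. Members near the floor of the scale have folds that background limits.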

Other observations

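The array of wild-type replicate 4 also carried genes that stand on none of the lists. Of the 175 genes at least 1 log2 unit above the other 7 arrays, 21 were members, 25 were on the other lists and 129 were on none. The 11 genes with the highest leads were all listed ones. The first unlisted gene was Car3, a carbonic anhydrase abundant in muscle and fat, which read 8.76 on wild-type replicate 4, against 2.38, 2.53 and 3.82 in wild-type replicates 1 to 3 and 2.89, 3.97, 2.70 and 4.57 in the libraries labelled Fgf10+/-. Omd, the matrix protein osteomodulin, read 7.73 there and at most 3.77 elsewhere. Among the 15 unlisted genes with the highest leads were also Cd40lg, a T cell ligand (3.56), Foxd2, a transcription factor (3.16), Gpr119, a receptor of gut and islet cells (2.97), and Reg4, a secreted lectin (2.90). Olfactory and vomeronasal receptor genes made up 14 of the 129, such as Vmn2r70 (3.39) and Olfr995 (2.65). These are values of 1 array, without a replicate.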
